A study of Mus musculus with 3 samples.

Results

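The genes of the proteasome were followed through a microarray study of esmolol, a cardioselective beta blocker cleared within minutes of stopping the infusion, in the hearts of C57BL/6 mice. Members were all genes with a symbol beginning Psma to Psmg, which gave 50 genes and 83 probes of 19532 named genes on the array. Of these, Psmb8, Psmb9, Psmb10, Psme1 and Psme2 form the interferon-inducible set and were set against the other 45. Psmc3ip, a meiotic recombination factor, and Psme3ip1, a binding partner of the activator Psme3, match by name only and are no subunits of the particle.

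The study had 6 groups of 8 animals, and RNA was purified from 30 mg of heart tissue. Each contrast had an untreated arm of its own. Esmolol was infused at 20 mg/kg/h through a catheter in the right jugular vein. In the non-septic contrast, hearts of animals given esmolol were compared with hearts of animals recorded as receiving no treatment. In the LPS contrast, both arms had received lipopolysaccharide, a bacterial cell wall component, by injection into the peritoneum, and in the CLP contrast both arms had undergone cecal ligature and perforation, a model of abdominal sepsis. All animals were of the same strain, and no allele, age or sampling time is given in the sources used here. For each probe and contrast the table holds 1 log ratio, merged from 4 replicates with dye swaps and read here as log2. No replicate values were analysed, so no p-value can be given. Values above 0 mean higher with esmolol. For CLP this rests on the title, which names the untreated hearts first, whereas the design text sets treated against untreated hearts for the series. The CLP direction is therefore not settled, and every CLP sign given here reverses if the title's order is not that of the ratio.

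The proteasome degrades proteins tagged with ubiquitin. Its barrel, the 20S core, is built of rings of alpha subunits, which gate the channel, and rings of beta subunits, of which Psmb5, Psmb6 and Psmb7 carry the peptide-cutting sites. Interferon-gamma induces Psmb8, Psmb9 and Psmb10, which take the places of Psmb5, Psmb6 and Psmb7 in newly assembled cores, and the activator subunits Psme1 and Psme2, which cap the barrel. The resulting immunoproteasome is known for making peptides for MHC class I molecules and is abundant in immune cells, while the constitutive particle predominates in heart muscle.

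RefSeq promoter windows (GRCm38.p6, 250 bases before to 50 after a transcript start) were found for 42 of the 50 members, 46 windows in all. Those of Psmb8, Psmb9 and Psme2 are shown because these genes had the lowest values of the interferon-inducible set in LPS hearts, Psmb5 as the partner that Psmb8 replaces, and Psme4 because it lay at the opposite end of the order. A second, overlapping window of Psme2, also without a match, is not shown. Each window shown is written 5′ to 3′ on the strand of its gene, and capitals mark the motif matches described next.
Psmb8, chr17:34197945-34198244, plus strand: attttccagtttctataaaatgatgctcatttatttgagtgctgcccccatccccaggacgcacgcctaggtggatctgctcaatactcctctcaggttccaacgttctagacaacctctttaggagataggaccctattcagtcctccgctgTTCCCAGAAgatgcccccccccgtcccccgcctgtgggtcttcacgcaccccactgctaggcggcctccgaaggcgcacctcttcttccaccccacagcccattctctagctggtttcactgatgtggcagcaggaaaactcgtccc
Psmb9, chr17:34187281-34187580, minus strand: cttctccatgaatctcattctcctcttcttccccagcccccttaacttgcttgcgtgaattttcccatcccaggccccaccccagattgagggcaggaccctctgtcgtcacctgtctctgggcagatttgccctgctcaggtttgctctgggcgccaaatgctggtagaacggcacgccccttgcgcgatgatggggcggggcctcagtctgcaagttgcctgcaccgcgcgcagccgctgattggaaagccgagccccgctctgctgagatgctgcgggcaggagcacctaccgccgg
Psme2, chr14:55591052-55591351, minus strand: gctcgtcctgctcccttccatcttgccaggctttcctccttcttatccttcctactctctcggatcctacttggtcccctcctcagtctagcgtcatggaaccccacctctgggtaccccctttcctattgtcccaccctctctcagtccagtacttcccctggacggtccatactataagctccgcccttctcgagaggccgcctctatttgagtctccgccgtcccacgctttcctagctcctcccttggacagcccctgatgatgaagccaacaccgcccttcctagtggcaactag
Psmb5, chr14:54617946-54618245, minus strand: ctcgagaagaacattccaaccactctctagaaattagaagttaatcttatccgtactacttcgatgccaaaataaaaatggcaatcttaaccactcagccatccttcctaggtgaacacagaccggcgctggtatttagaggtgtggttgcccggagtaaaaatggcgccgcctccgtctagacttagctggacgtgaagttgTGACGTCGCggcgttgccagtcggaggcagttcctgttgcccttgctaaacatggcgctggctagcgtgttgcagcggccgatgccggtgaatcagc
Psme4, chr11:30771525-30771824, plus strand: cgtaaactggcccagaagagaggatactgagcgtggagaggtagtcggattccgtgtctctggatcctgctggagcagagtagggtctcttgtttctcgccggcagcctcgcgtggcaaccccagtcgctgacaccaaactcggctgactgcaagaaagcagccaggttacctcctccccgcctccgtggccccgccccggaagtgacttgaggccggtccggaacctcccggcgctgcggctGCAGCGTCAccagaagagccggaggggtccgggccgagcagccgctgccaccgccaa

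The Psmb8 window held 1 match to the GAS element (TTCNNNGAA), an element known from promoters that respond to interferon-gamma, which began 97 bases before the start as TTCCCAGAA. Of the 5 interferon-inducible members with a window, 1 held a GAS match and 1, Psme1, an interferon-stimulated response element, searched as GAAA and GAAA separated by any 2 bases. Among 32851 windows of the same length, 8.30% held the former and 3.44% the latter. A member counted as matching if any of its windows did, whereas these shares are per window. Of the 37 other members with a window, 2 (Psmd2 and Psmg1) held a GAS match and 4 (Psmb3, Psmd4, Psmd9 and Psmg4) the response element. The antioxidant element (TGACNNNGC), a sequence bound by NRF family factors that drive proteasome genes under stress, matched in 6 of these 37, which were Psmb5, Psmb6, Psmc6, Psmd12, Psmd9 and Psme4. It matched in none of the 5 interferon-inducible members and in 12.4% of all windows. The kappa-B element, searched as GGG and TTTCC separated by any 2 bases, matched in none of the 5, in Psme3ip1 alone among the 37, and in 1.63% of all windows. Both strands were searched, and no match of 1 motif overlapped a match of another in the windows shown. A match is a description of letters and not a shown binding site. A window without a match says nothing about binding elsewhere.

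All 50 members had a value in every contrast, from 79, 81 and 79 of their 83 probes for the non-septic, LPS and CLP contrasts. The spread between probes of the same member, pooled over the 22, 22 and 21 members with several values, was 0.074, 0.16 and 0.075 on the log2 scale, against 0.11, 0.24 and 0.10 over all genes. No other error can be computed from the merged values, and this spread leaves out variation between animals and hybridizations. A single exact value that recurred at 359, 526 and 538 probes of the columns, which may mark spots saturated in both channels, was found at 1 member probe, of Psme3ip1 in LPS hearts. Few members lay far from 0. At a ratio of 1.5-fold (0.585 on the log2 scale), 1 member, Psmb8 in LPS hearts, was lower and 0 were higher. Of all genes, 2.26% were lower and 2.06% higher by as much in LPS hearts, 0.241% and 0.219% in non-septic hearts and 0.133% and 0.819% in CLP hearts. The members' count is near this background, so nothing about the list as a whole follows from it.

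At 1.2-fold (0.263 on the log2 scale), 0 members were lower or higher in non-septic hearts, where 2.91% of all genes were lower and 2.33% higher. In LPS hearts 5 members were lower and 2 higher, against 14.4% and 15.4% of all genes. The lower members were Psmb8, Psme2 and Psmb9 of the interferon-inducible set and the assembly chaperones Psmg3 and Psmg4, and the higher members were Psme4 and Psmc3. In CLP hearts 1 member, Psmb8, was higher and 0 were lower, against 3.92% and 2.06% of all genes. Below 0 lay 28 of 50 members in non-septic hearts (49.5% of all genes), 31 of 50 in LPS hearts (50.0%) and 26 of 50 in CLP hearts (52.1%). Among members with several values, all probes shared a side of 0 for 12 of 22, 16 of 22 and 10 of 21 in these contrasts. The side of many members is therefore uncertain. The plot of all 50 members by role shows a narrow column around 0 in each contrast with Psmb8 and Psme4 at its edges.

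**Figure D1:**
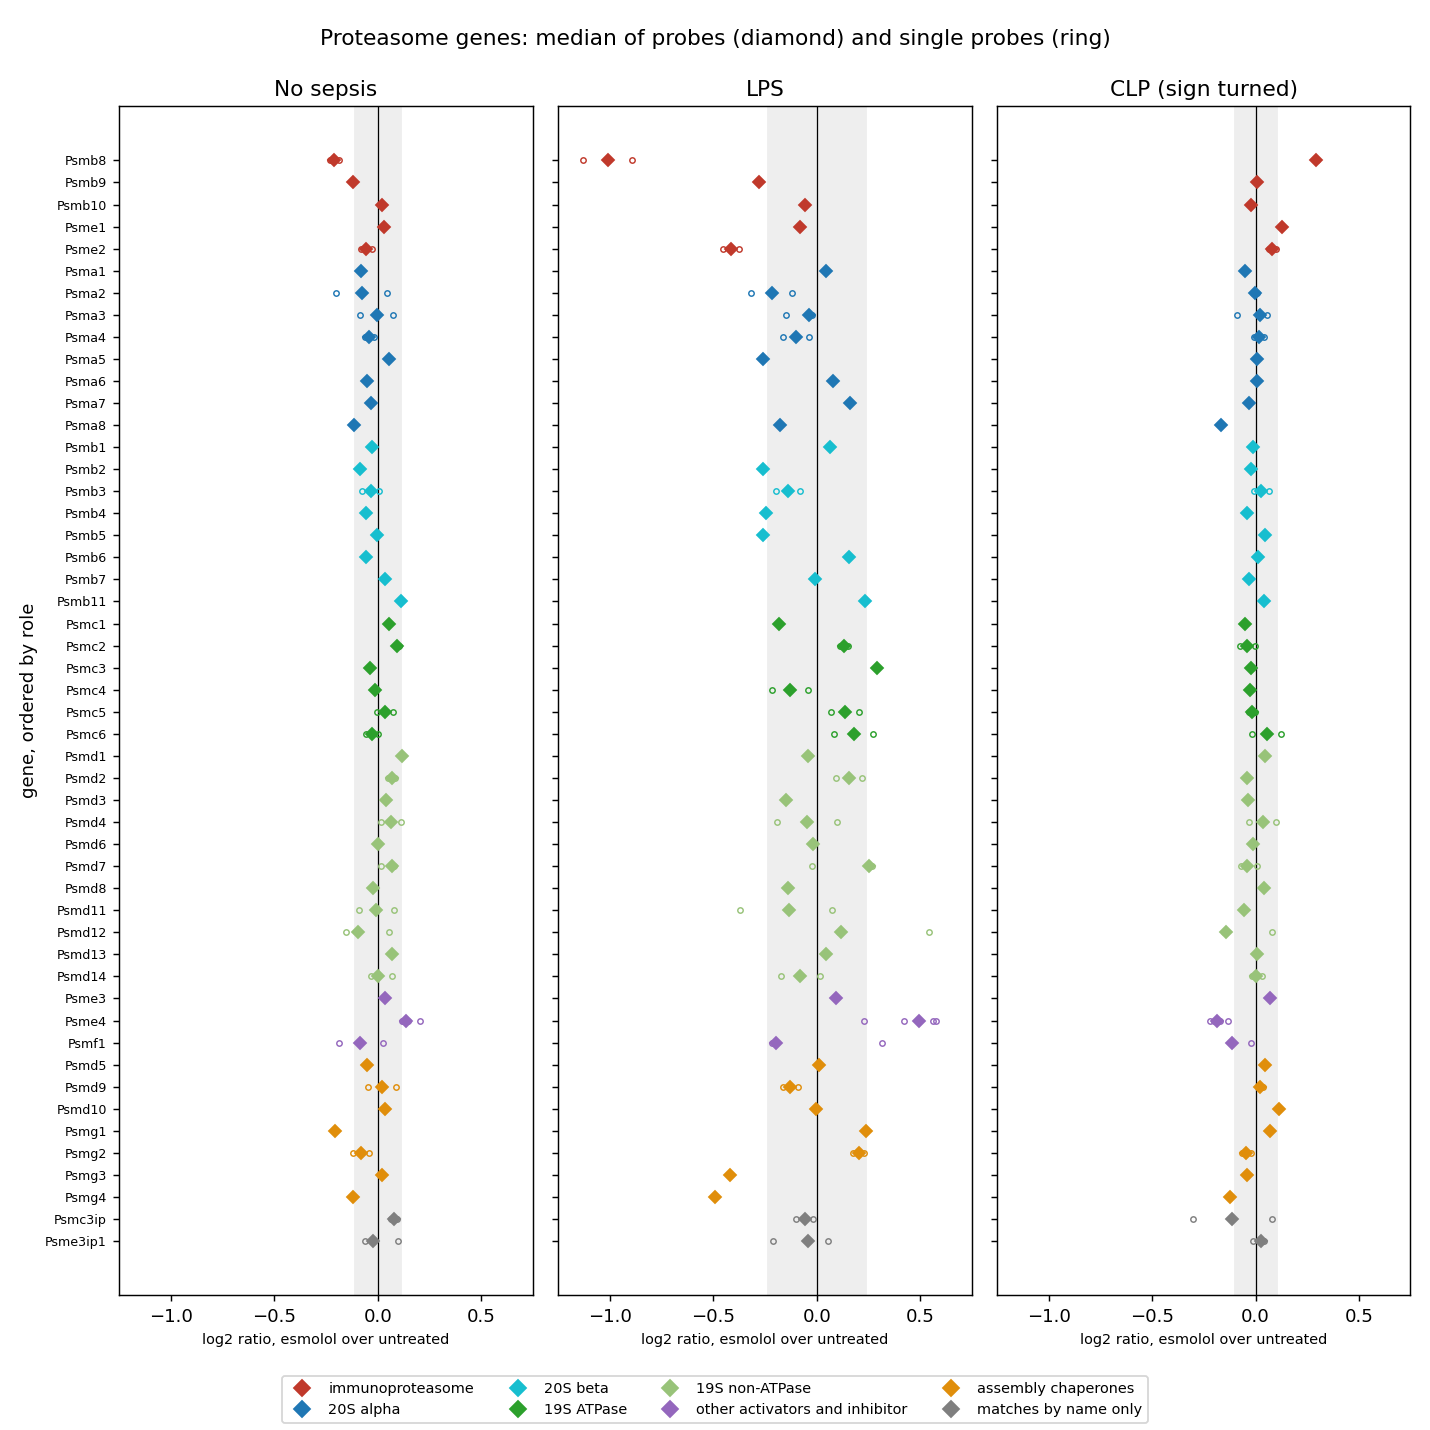
Log2 ratio of esmolol over untreated hearts (x axis) for each of the 50 members (y axis, ordered by role) in each contrast. Diamonds are medians over the probes of a gene, rings are single probes, and the grey band is the pooled SD between probes of all genes in that contrast (0.11, 0.24 and 0.10). Psmb8 lies at -0.21, -1.01 and 0.29 and Psme4 at 0.14, 0.49 and -0.19.

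Psmb8, the inducible subunit with chymotrypsin-like activity, lay furthest from 0 of all 50 members in every contrast. In non-septic hearts Psmg1 lay almost as far out (-0.2062 against -0.2101 for Psmb8). In LPS hearts the 2 probes of Psmb8 read -1.13 and -0.89 (median -1.01 ± 0.17, SD between probes), which is 2.02-fold lower with esmolol. It ranked 73 from the lowest of 17733 genes, and 0.410% of genes were lower. In non-septic hearts the 2 probes read -0.23 and -0.19 (median -0.21 ± 0.029), with 4.88% of genes lower. In CLP hearts they read 0.29 and 0.30 (median 0.29 ± 0.0031), 1.23-fold higher with esmolol in the titled direction, with 3.11% of genes higher. In each contrast both probes lay on the same side of 0 and outside the pooled spread between probes.

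Psme2, the beta subunit of the interferon-induced activator cap, was the next lowest of the set in LPS hearts. Its 2 probes read -0.45 and -0.37 (median -0.41 ± 0.055, SD between probes), 1.33-fold lower, with 6.10% of genes lower. Both lay near 0 in non-septic hearts (-0.030 and -0.082) and on the positive side in CLP hearts (0.066 and 0.097). Mouse genomes also hold Psme2b, a near copy of Psme2, and whether the probes bind its transcript was not tested. Psme1, which forms the cap together with Psme2, did not share that value. Its single probe read -0.079 in LPS hearts, within the spread between probes, 0.032 in non-septic hearts and 0.13 in CLP hearts, where 12.2% of genes were higher.

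Psmb9, the inducible partner of Psmb6, read -0.28 at its single probe in LPS hearts, just past 1.2-fold, with 13.4% of genes lower. It lay at -0.12 in non-septic hearts and at 0.0081 in CLP hearts. Psmb10, the inducible partner of Psmb7, stayed near 0 throughout, reading 0.020 without sepsis, -0.055 with LPS and -0.020 with CLP. The values of the interferon-inducible set were thus uneven. All 5 lay below 0 in LPS hearts, but they ranged from -1.01 to -0.055. In CLP hearts 4 of 5 lay above 0, and in non-septic hearts 3 of 5 lay below 0.

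Set against the other members, the median of the 5 was lower in LPS hearts, at -0.28 against -0.036 for the other 45, a difference of -0.24. It was -0.056 against -0.0059 in non-septic hearts (difference -0.050) and 0.082 against -0.015 in CLP hearts (difference 0.096). Over all genes the medians were 0.0001, 0.0010 and -0.0049 in LPS, non-septic and CLP hearts. Without Psmb8 the LPS difference shrank to -0.14, as it did without Psme2, and the CLP difference to 0.059. Over members with a single probe, which leaves out Psmb8 and Psme2, the difference was -0.071 in LPS hearts and 0.041 in non-septic hearts. Without Psmb8 or without Psmb9 the non-septic difference was -0.012. With the 3 beta subunits alone the difference was -0.11 in non-septic, -0.24 in LPS and 0.023 in CLP hearts. In order of value, Psmb8 lay below all 45 other members in LPS and in non-septic hearts, and Psmb8 and Psme1 lay above all of them in CLP hearts. Within the spread between probes, Psmb8 and Psmg1 were level in non-septic hearts (-0.2101 and -0.2062). The same held for Psme1 and Psmd10 in CLP hearts (0.1266 and 0.1115). Psmb9, Psmb10 and Psme1 lay inside the range of the other members in LPS hearts (-0.49 to 0.49), as did Psme2.

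**Figure D2:**
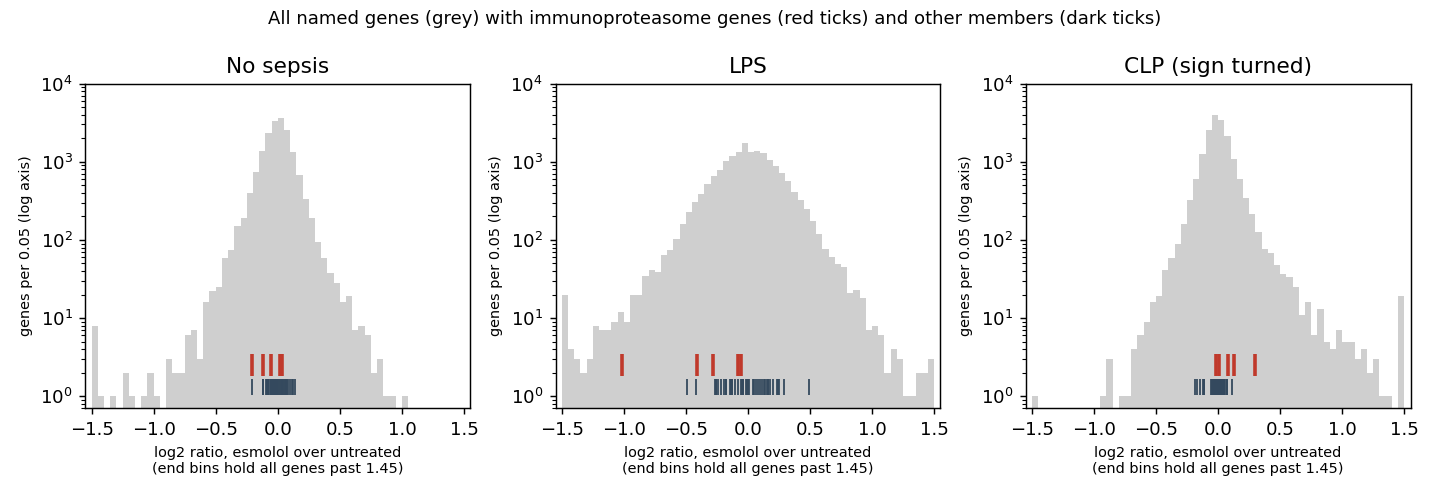
Histograms of the log2 ratio of esmolol over untreated hearts (x axis) over all named genes (y axis, genes per bin on a log scale) in the 3 contrasts, with the end bins holding all genes further out. Red ticks are the 5 interferon-inducible members and dark ticks the other 45. In LPS hearts the red tick of Psmb8 lies at -1.01, where 0.410% of genes are lower.

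Psmb8 and its constitutive partner Psmb5 differed most among the subunits that replace each other in the core. In LPS hearts Psmb5 also lay below 0, at -0.26, so the ratio of Psmb8 to Psmb5 was lower by 0.75 on the log2 scale (1.68-fold) with esmolol. The same difference was -0.21 in non-septic hearts and 0.25 in CLP hearts, where Psmb5 itself read -0.0040 and 0.047. For Psmb9 and Psmb6 it was -0.44 in LPS hearts, and 0.16 of this came from Psmb6 lying above 0. In non-septic and CLP hearts it was -0.063 and -0.0014. For Psmb10 and Psmb7 it was -0.015, -0.047 and 0.014, so this partnership showed no ratio beyond the spread between probes. All subunits compared here except Psmb8 had a single probe. A difference of ratios compares changes and says nothing of how much of each subunit was present.

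**Figure D3:**
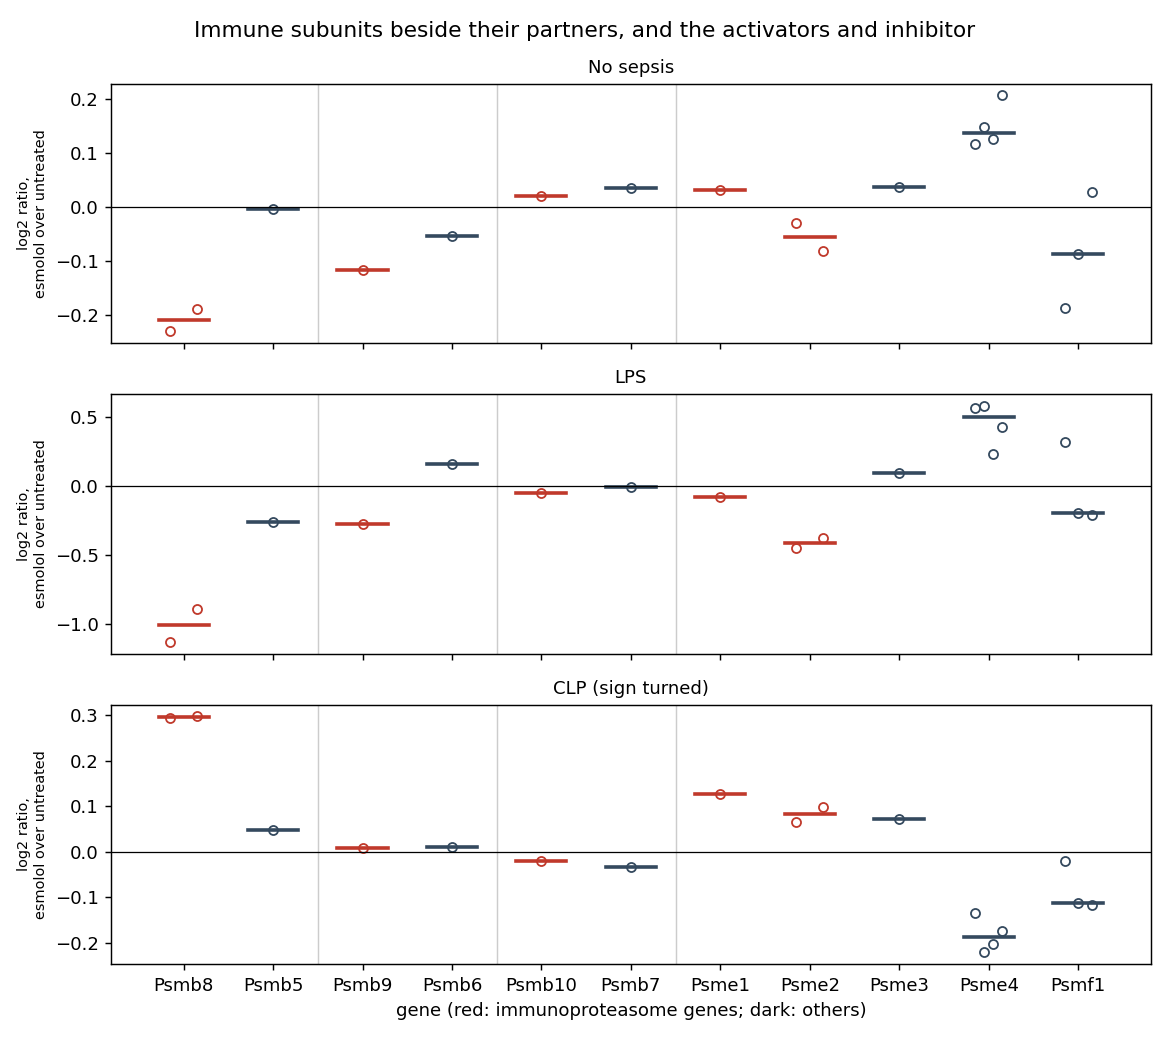
Log2 ratio of esmolol over untreated hearts (y axis, scaled separately in each panel) for the inducible subunits beside their constitutive partners, and for the activators and the inhibitor (x axis). Rings are single probes, bars are medians, and interferon-inducible genes are red. Psmb8 and Psme4 lie on opposite sides of 0 in each panel.

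The other activators and the inhibitor went separate ways. Psme4, the gene of the nuclear activator that recognises acetylated histones, was the highest member in LPS hearts. Its 4 probes read 0.58, 0.56, 0.43 and 0.23 (median 0.49 ± 0.16, SD between probes, n = 4 probes), 1.41-fold higher, with 3.67% of genes higher. It was also the highest member in non-septic hearts, just ahead of Psmd1 (0.12), with probes from 0.12 to 0.21 (median 0.14 ± 0.041). There 9.78% of genes were higher. In CLP hearts Psme4 was the lowest member, just below Psma8 (-0.17), with probes from -0.22 to -0.14 (median -0.19 ± 0.037). There 4.83% of genes were lower. Its side of 0 was opposite to that of Psmb8 in all 3 contrasts, and no probe of either gene crossed 0 within a contrast. Psme3, a nuclear relative of Psme1 and Psme2, read 0.037 without sepsis, 0.094 with LPS and 0.071 with CLP. Psmf1, which encodes a protein first described as an inhibitor of the core, had medians of -0.087, -0.20 and -0.11. Its 3 probes did not share a side in LPS hearts (-0.22, -0.20 and 0.32) or in non-septic hearts (-0.19, -0.087 and 0.028). Its values there are uncertain.

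The medians of the constitutive core stayed near 0, but single genes did not all do so. In LPS hearts Psma5 (-0.2614), Psmb5 (-0.2612), Psmb2 (-0.2604) and Psmb4 (-0.2437) lay below 0 by more than the pooled spread between probes (0.2371). The first 3 were close to the inducible Psmb9 (-0.2778). The highest core gene, Psmb11 (0.2334), lay within that spread. The 8 alpha subunit genes had medians of -0.045, -0.068 and 0.0031 for the non-septic, LPS and CLP contrasts. In LPS hearts they ranged from Psma5 (-0.26) to Psma7 (0.16), and in CLP hearts from Psma8, a testis form (-0.17), to Psma3 (0.022). Of the 8, 7 lay below 0 in non-septic hearts, from Psma8 (-0.12) to the exception Psma5 (0.053). The 8 constitutive beta subunit genes had medians of -0.030, -0.073 and -0.0010. They ranged from Psmb5 (-0.26) to Psmb11, a thymus form (0.23), in LPS hearts, from Psmb2 (-0.085) to Psmb11 (0.11) in non-septic hearts and from Psmb4 (-0.040) to Psmb5 (0.047) in CLP hearts. Psma8 and Psmb11 are known from testis and thymus rather than heart, so their ratios show what the array gave for genes with little known expression in this organ.

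The 19S cap binds ubiquitin chains and unfolds substrates. Its 6 ATPase genes had medians of 0.010, 0.14 and -0.024. In LPS hearts 4 of these 6 lay above 0, whereas the alpha and beta medians of the core lay below it. Psmc3 was highest in LPS hearts (0.29), past 1.2-fold, and Psmc1 lowest (-0.18). In non-septic hearts they ran from Psmc3 (-0.037) to Psmc2 (0.095) and in CLP hearts from Psmc1 (-0.049) to Psmc6 (0.054). The 11 other cap genes had medians of 0.040, -0.044 and -0.015. The lowest and highest were Psmd3 (-0.15) and Psmd7 (0.25) in LPS hearts, Psmd12 (-0.096) and Psmd1 (0.12) in non-septic hearts and Psmd12 (-0.15) and Psmd1 (0.043) in CLP hearts. The 3 probes of Psmd12 in LPS hearts read 0.54, 0.12 and 0.11, and only the first passed 1.2-fold. They lay on both sides of 0 in non-septic hearts (-0.15, -0.096 and 0.055) and in CLP hearts (0.081, -0.15 and -0.15). The probes of Psmd7 did so in LPS hearts (0.27, 0.25 and -0.022). For Psmd11, 1 of 3 probes read -0.37 in LPS hearts while the others lay at -0.13 and 0.075.

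The assembly chaperones held the lowest of the 45 other members in LPS hearts. Psmg1 and Psmg2 form a dimer that gathers the alpha ring, and Psmg3 and Psmg4 form another dimer that acts on the same ring. In LPS hearts Psmg4 read -0.49 (1.41-fold lower, 3.73% of genes lower) and Psmg3 -0.42 (1.34-fold lower, 5.93% of genes lower), each at a single probe. Psmg1 (0.24, 1 probe) and Psmg2 (0.18 and 0.23 at 2 probes) lay above 0 instead. The members of each dimer thus lay on the same side of 0, and the dimers on opposite sides, in that contrast alone. In non-septic hearts Psmg1 was the second lowest member (-0.21), with Psmg2 at -0.082, Psmg3 at 0.021 and Psmg4 at -0.12. In CLP hearts the same genes lay at 0.069, -0.046, -0.042 and -0.12. The chaperones of the cap, Psmd5, Psmd9 and Psmd10, lay between -0.13 and 0.010 in LPS hearts, and Psmd10 was the highest of all 45 in CLP hearts (0.11). The genes matching by name only, Psmc3ip and Psme3ip1, lay at -0.058 and -0.043 in LPS hearts. In CLP hearts the 2 probes of Psmc3ip read -0.31 and 0.078.

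As a group the 45 other members were less spread than genes at large. Their SD on the log2 scale was 0.071, 0.20 and 0.063 for the non-septic, LPS and CLP contrasts, against 0.142, 0.285 and 0.160 for all genes. Within the pooled spread between probes of all genes (0.11, 0.24 and 0.10) lay 86.7%, 77.8% and 84.4% of them, against 71.5%, 65.8% and 69.6% of all genes. Of the 5 interferon-inducible members, 3, 2 and 3 lay within it. The narrower spread between probes of the members (0.074, 0.16 and 0.075) was not used for these shares. Whether poorly measured probes widen the SD of all genes was not tested, because intensities were not analysed here.

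Genes that act with the immunoproteasome were followed in lists chosen for this purpose. Of 11 measured genes of interferon-gamma signalling, 4 were lower by 1.5-fold or more in LPS hearts and 0 were higher, against 2.26% and 2.06% of all genes, with a list median of -0.25. These were Socs1, a feedback inhibitor (-1.62), Nlrc5, the MHC class I transactivator (-1.20), Irf1 (-0.92) and Irf8 (-0.78), transcription factors of the interferon response. Ifng itself lay at -0.25 and Ciita, the class II transactivator, was highest (0.15). In CLP hearts the list median was 0.16, with Socs1 highest (0.60) and past 1.5-fold and Ifngr1 lowest (-0.10). In non-septic hearts it was -0.050, from Irf1 (-0.16) to Jak2 (0.20).

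Of 11 genes of MHC class I presentation, 4 were lower by 1.5-fold or more in LPS hearts and 0 were higher, against the same 2.26% and 2.06% of all genes. The list median was -0.079, and it was -0.34 over the 8 genes with no probe on the recurring value, a setting added after seeing the data. They were Tapbpl (-0.68), the peptide transporter subunit Tap2 (-0.66), the peptide-trimming protease Erap1 (-0.65) and the loading factor Tapbp (-0.59), and Calr was highest (0.21). The recurring value was present at 1 or more probes of 3 of these genes in LPS hearts, H2-K1, H2-D1 and B2m, so their ratios there are uncertain. In CLP hearts 9 of 11 lay above 0 (median 0.15), from Pdia3 (-0.11) to Tap1 (0.53), and in non-septic hearts the median was -0.029, from Pdia3 (-0.36) to Tapbpl (0.12). All 5 genes listed for the system of ISG15, an interferon-induced relative of ubiquitin, were lower by 1.5-fold or more in LPS hearts. They ran from Isg15 (-0.93) and its conjugating enzyme Ube2l6 (-0.90) through Herc6 (-0.76) and Usp18 (-0.64) to Uba7 (-0.60). In CLP hearts they ranged from Usp18 (-0.049) to Isg15 (0.27) and in non-septic hearts from Isg15 (-0.15) to Usp18 (0.079).

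Psmb8 and Psmb9 lie in the MHC region with Tap1 between them. In LPS hearts the order along the chromosome read Psmb9 at -0.28, Tap1 at -0.079, Psmb8 at -1.01 and Tap2 at -0.66, with Tap1 within the spread between probes and the others outside it. The 4 genes on either side ran from Tap2 to H2-DMa (0.52), with H2-Ob not measured. In CLP hearts the same genes read 0.0081, 0.53, 0.29 and 0.095, with Tap1 highest. Psme1 and Psme2 also lie close together, with Emc9 between them, which read -0.22 in LPS hearts. In LPS hearts the 4 genes on either side of them ran from Irf9 (-0.22) to Nrl (0.54), with Rnf31, next to Psme2, at -0.069, Rec8 at 0.32 and Ipo4 at 0.25.

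General regulators of ubiquitin and the proteasome were followed in the same way. Of 10 measured genes for proteasome transcription and assembly, 0 passed 1.5-fold in any contrast. Of all genes, 2.26% were lower and 2.06% higher by as much in LPS hearts. These shares were 0.241% and 0.219% in non-septic hearts and 0.133% and 0.819% in CLP hearts. The count of 0 is near this background. The list medians were 0.022, 0.075 and -0.047 for the non-septic, LPS and CLP contrasts. In LPS hearts they ran from Zfand2a, an arsenite-inducible cap-binding gene (-0.47), to Ngly1, the deglycosylase that activates Nfe2l1 (0.33). Nfe2l1, the transcription factor that restores proteasome genes after inhibition, read 0.045, -0.088 and -0.064. The chaperone Pomp, needed for core maturation, read -0.12, -0.016 and -0.017. In non-septic hearts Pomp was lowest and Zfand5 highest (0.18), and in CLP hearts Akirin2 was lowest (-0.15) and Nfe2l2 highest (0.13). The 10 measured deubiquitinases and shuttle receptors had medians of 0.014, 0.10 and -0.10. They had no member past 1.5-fold, which is also near that background. Among them Sqstm1, an autophagy receptor, was highest in non-septic hearts (0.34) and lowest in CLP hearts (-0.32). Usp14, which trims chains at the cap, was highest in LPS hearts (0.24) and Ddi1 lowest there (-0.089), and Ube3c was lowest in non-septic hearts (-0.13) and highest in CLP hearts (0.074). Of 6 listed genes for ubiquitin and its activation only Uba6 was measured here, at -0.095, 0.22 and -0.023.

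**Figure D4:**
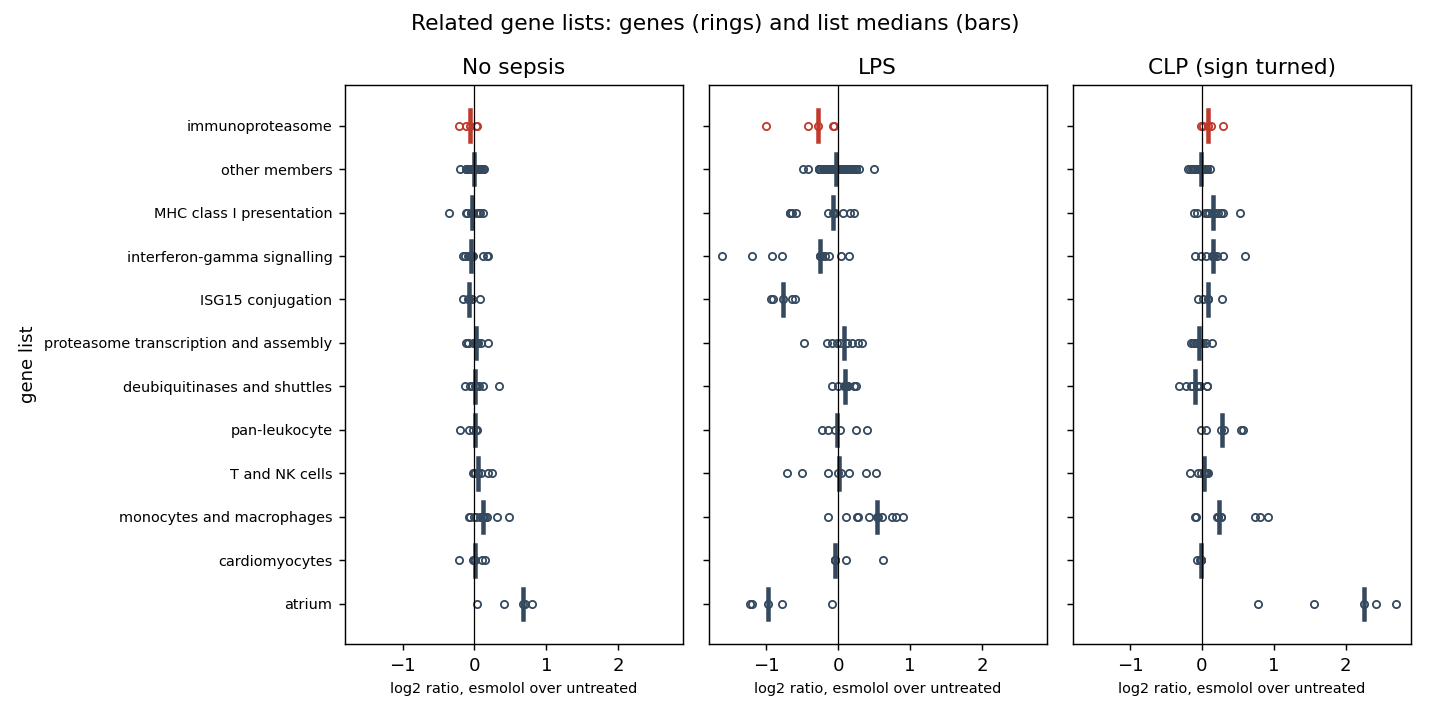
Log2 ratio of esmolol over untreated hearts (x axis) for genes (rings) of 12 lists (y axis), with list medians as bars, 1 panel a contrast. In LPS hearts all 5 genes of the list labelled ISG15 conjugation lie between -0.93 and -0.60, while the 45 other proteasome members centre on -0.036.

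Fewer cells of a type and less RNA per cell cannot be told apart in whole heart tissue, and the immunoproteasome is abundant in leukocytes. Of 6 pan-leukocyte markers, 0 were lower and 1 higher by 1.2-fold in LPS hearts, against 14.4% and 15.4% of all genes. These counts are near the shares of all genes. The median of these markers was -0.016, from Cd53 (-0.23) to Tyrobp (0.40). The median over monocyte and macrophage markers was 0.54 there, with Fcgr1 lowest (-0.14). Of these 11 markers, 4 were higher by 1.5-fold or more, against 2.06% of all genes (Cd163 at 0.89, Mrc1 at 0.81, C1qa at 0.75 and Lyz2 at 0.62). The 8 measured T and NK cell markers had a median of 0.014, from Gzmb (-0.71), a cytotoxic granule protease, to Nkg7 (0.53). Only Gzmb passed 1.5-fold, against 2.26% of all genes lower by as much. It had a value at 1 probe there and no value in the other contrasts, so it is uncertain. The marker medians in LPS hearts were also -0.11 for B cells, 0.078 for neutrophils, 0.16 for dendritic cells, 0.035 for endothelium, -0.043 for cardiomyocytes, -0.24 for adipocytes, -0.93 for blood and -0.98 for atrium. Of the cardiomyocyte markers, 4 of 6 had a probe on the recurring value, so their median carries little weight. In CLP hearts 3 of 6 pan-leukocyte markers were higher by 1.2-fold or more, against 3.92% of all genes (median 0.28, from Laptm5 at -0.019 to Tyrobp at 0.56). Among macrophage markers, Adgre1 (0.92), Itgam (0.80) and Lyz2 (0.74) were higher by 1.5-fold or more, against 0.819% of all genes. The macrophage median was 0.24. Neutrophil markers lay at -0.56, T and NK cell markers at 0.035, endothelial markers at -0.057, adipocyte markers at 0.47 and atrial markers at 2.25. The CLP medians were also -0.0039 for blood, -0.042 for B cells, 0.040 for dendritic cells and -0.020 for cardiomyocytes. The last is the recurring value itself, which 1 blood marker, Hba-a1, also held. In non-septic hearts the medians were 0.0054 for pan-leukocyte, 0.12 for macrophage, 0.19 for neutrophil, 0.051 for T and NK cell, -0.012 for B cell and 0.012 for dendritic cell markers. They were 0.0032 for endothelium, 0.0026 for cardiomyocytes, -0.11 for adipocytes, -0.18 for blood and 0.68 for atrium. Atrial markers lay on the side of 0 that Psmb8 took in LPS and in CLP hearts, and on the opposite side in non-septic hearts. In LPS hearts 4 of 5 atrial markers were lower by 1.5-fold, against 2.26% of all genes. In CLP hearts 5 of 5 were higher by 1.5-fold, against 0.819%. Blood markers lay below 0, as Psmb8 did, in LPS and in non-septic hearts (4 of 4 in each). By 1.5-fold, 3 blood markers were lower in LPS hearts, against 2.26% of all genes. None passed 1.2-fold in non-septic hearts, where 2.91% of all genes were lower by as much. Adipocyte marker medians lay on the side of 0 that Psmb8 took in all 3 contrasts. On that side lay 3 of 3 measured markers in non-septic hearts, 3 of 4 in LPS hearts and 3 of 4 in CLP hearts. Cidea lay on the other side in LPS (0.24) and in CLP hearts (-0.23). By 1.5-fold, 2 adipocyte markers were higher in CLP hearts (Ucp1 at 2.40 and Adipoq at 0.89), against 0.819% of all genes. In LPS hearts 0 were lower by as much. The part of leukocyte, atrial, blood or adipocyte content in the values of Psmb8 was not tested.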

How the data were processed

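Heart RNA of mice was hybridized to 2-colour arrays. The authors deposited 1 log ratio per probe and contrast, merged from 4 replicates with dye swaps per the labels, and these values were read as log2. The sources used here do not give the base of the logarithm, the scanner, the background correction or the normalization. Whether the merged replicates were separate animals is not stated either. The CLP sign was turned as titled. Probes were named from the platform annotation (32664 of 41174 carried 1 gene, 45 several and 8465 none). Symbols were updated by gene ID from RefSeq, which matched 32524 probes and all 50 members. A gene's value was the median over its probes, computed with pandas 2.3.3 in Python 3.11.15. Genes were counted from 1.5-fold and 1.2-fold on, beside all genes measured. No test is possible with 1 value per contrast, so no p-value or interval is given, and the merged replicates limit the precision in a way the table does not show. Counting and collapsing were tested on simulated data. Alternatives were the mean over probes, centring, other member sets, folds and log bases, the recurring value left out and the CLP sign as deposited. Named genes are the interferon-inducible members and partners, the ends of most member groups and related gene lists, and genes of these past 1.5-fold. Of the cell type marker lists, only some ends and some genes past 1.5-fold are named. The members and lists were chosen with earlier results of these data known.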

Additional observations from a re-analysis of the deposited data

Results flagged for a closer look

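A few members lay on opposite sides of 0 in 2 contrasts, with both values larger than the pooled spread between probes. These differences were not tested, since each contrast is a single merged value. Psmb8 differed by -1.31 on the log2 scale between LPS and CLP hearts (-1.01 and 0.29) and by -0.50 between non-septic and CLP hearts (-0.21 and 0.29). Psme4 differed by 0.68 between LPS and CLP hearts (0.49 and -0.19) and by 0.32 between non-septic and CLP hearts (0.14 and -0.19). Psmg1, with 1 probe, differed by -0.45 between non-septic and LPS hearts (-0.21 and 0.24). With the CLP sign as deposited, Psmb8 and Psme4 would each lie on the same side of 0 in all 3 contrasts.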

How the results depend on the processing

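No paired analysis was possible because each contrast is 1 merged value, and leaving out replicates was not possible for the same reason. Of 444 values recomputed under 19 alternatives, 424 moved by less than the pooled spread between probes (counts: stayed within 1.5 times). Many of them could not move. All 50 members were measured in every contrast, 1 member probe held the recurring value, and centring leaves differences between genes unchanged. Mean and median are equal for genes with 1 or 2 probes. A change of sign smaller than the spread counted as unmoved. The 424 is therefore no measure of robustness. With the CLP sign as deposited, the values in CLP hearts reversed to -0.29 for Psmb8, -0.13 for Psme1, 0.19 for Psme4, 0.12 for Psmg4 and -0.25 for Psmb8 minus Psmb5. The interferon-inducible median there became -0.082 and its difference from the other members -0.096. With genes of 1 probe alone, 0 members were lower by 1.5-fold in LPS hearts, because Psmb8 has 2 probes. The difference between the interferon-inducible and other medians then went from -0.24 to -0.071 in LPS hearts, from -0.050 to 0.041 in non-septic hearts and from 0.096 to 0.021 in CLP hearts. At 1.2-fold, the LPS contrast had 2 higher and 5 lower members and the CLP contrast 1 higher member. Read as natural logs, 1 was higher and 4 were lower by 1.5-fold in LPS hearts, against 6.60% and 6.40% of all genes. Read as log10, the LPS contrast had 7 higher and 12 lower members, the non-septic contrast 2 lower, and the CLP contrast 1 of each. Of all genes, 24.0% were then higher and 22.7% lower in LPS, 5.93% and 7.26% in non-septic and 7.66% and 5.62% in CLP hearts, so these counts are at or under the shares of all genes, or within 1.5 times of them. Without genes on the recurring value, the MHC class I median in LPS hearts moved from -0.079 to -0.34 (chosen after seeing the data). Signs and ranks do not depend on the base. Limits are the single merged value per contrast, the unknown base and centring, the unsettled CLP direction, intensities that were not analysed here and the 27 members with a single probe. Planned comparisons of protein sequence were not run.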
